A study of Mus musculus with 8 samples.

Results

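The colony-stimulating factors are 3 cytokines of the myeloid lineage, M-CSF (Csf1), GM-CSF (Csf2) and G-CSF (Csf3), and they were analysed together with the genes of their receptors Csf1r, Csf2ra, Csf2rb and Csf3r. A gene was taken when at least 1 gene probe of the array carried a RefSeq identifier of it, and all 7 genes were found, out of 37018 genes and transcripts on the array. The files identify them as NM_007778 (Csf1), NM_009969 (Csf2), NM_009971 (Csf3), NM_001037859 (Csf1r), NM_009970 (Csf2ra), NM_007780 (Csf2rb) and NM_007782 (Csf3r). They lie on chromosomes 3, 11, 11, 18, 19, 15 and 4 in that order. All 7 passed the filter on low intensity, and no measured value entered the rule, although each gene is represented by its brightest probe.

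M-CSF binds a receptor tyrosine kinase, CSF1R, on which tissue macrophages depend for their survival. GM-CSF binds a ligand-specific alpha chain, CSF2RA, that signals only together with the common beta chain, CSF2RB, which the receptors for interleukins 3 and 5 also use, and G-CSF acts through a homodimer of CSF3R that is best known from neutrophils. The beta chain and the G-CSF receptor have no kinase of their own and work through JAK kinases and STAT factors, and macrophages are a known source of all 3 factors once bacterial lipopolysaccharide (LPS) has activated Toll-like receptor 4.

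The cells were peritoneal macrophages of C57BL/6 mice, either LysMCre-fur(fl/fl) (KO), in which Cre recombinase expressed from the lysozyme M locus deletes the proprotein convertase gene Furin in LysM+ cells, or WT littermates. They were left unstimulated or received LPS of E. coli at 1 μg/ml for 1, 4 or 24 h, and the study asked how the response to LPS depends on FURIN. RNA of both genotypes at the same time point was hybridized together on a 2-colour Agilent array, with 2 biological replicates per time point, 8 arrays and 16 channels in all. KO RNA carried Cy5 in replicate 1 and Cy3 in replicate 2, so replicate and dye orientation are the same factor in the KO/WT ratio. Whether the WT littermates carried floxed alleles or Cre alone, how many animals a sample pooled, and the age of the animals used for the arrays are not given in the sources used here. All values are normalized log2 intensities, on which a difference of 1 is a 2-fold change, and levels of different genes are not compared, because each probe has its own brightness.

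Between 43.8% and 51.3% of the gene spots lay well above background in a channel. The Furin probe gave KO/WT log2 ratios of -0.59 and -0.85 in unstimulated cells, -0.56 and -0.55 at 1 h, 0.00 and 0.33 at 4 h, then -0.59 and -0.69 at 24 h. With the replicate number as a block, the KO decrease passed in unstimulated cells, at 1 h and at 24 h (limma, adjusted p = 0.0122, 0.0478 and 0.0227, without it 0.161, 0.462 and 0.184). The samples labelled KO at 4 h were not lower than WT in Furin, whereas Lyz2, whose locus carries the Cre, had KO/WT log2 ratios of -0.90, -0.98, -1.09 and -1.73 at the successive time points, 4 h included. Where the Furin probe lies relative to the deleted part is not given in the sources used here. Every KO value or direction given for 4 h refers to the samples labelled KO. Of the macrophage markers, 7 of 8 were measured and all 7 were above background in every channel, as were all 6 large peritoneal macrophage and all 6 B cell markers, 4 of 6 T and NK cell markers and 5 of 6 mast cell markers. Among neutrophil markers S100a8, Mmp8 and Camp were above background in all 16 channels and S100a9, Retnlg and Ngp in 0, and among eosinophil markers Il5ra was above it in 16, Siglecf in 12 and Ccr3 in 10 channels, and Epx, Prg2 and Prg3 in 0. In such mixed RNA, fewer cells of a type and less RNA per cell cannot be told apart.

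LPS raised all 3 ligand genes at 4 h in both genotypes. Csf2 and Csf3 were already higher at 1 h and were still high at 24 h, whereas Csf1 peaked at 4 h and lay below its unstimulated level at 24 h. In WT cells at 1 h, 2 of the 7 genes rose and 0 fell, where 8.52% of all genes and transcripts changed (3.36% rose, 5.16% fell). After 4 h of LPS in WT cells 3 rose and 3 fell, where 34.8% of all changed (15.5% rose, 19.2% fell), and after 24 h 2 rose and 5 fell, where 30.4% changed (13.5% rose, 16.9% fell). In KO cells 2 rose and 1 fell at 1 h (7.54% of all changed, 3.08% up and 4.45% down), 3 rose and 2 fell at 4 h (36% changed, 16.3% up and 19.7% down), and 2 rose and 5 fell at 24 h (28.7% changed, 12.8% up and 15.9% down). The median change of the 7 genes in WT cells was -0.12, -0.48 and -0.93 at the successive times, where that of all genes and transcripts was -0.02, -0.00 and -0.01.

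**Figure D1:**
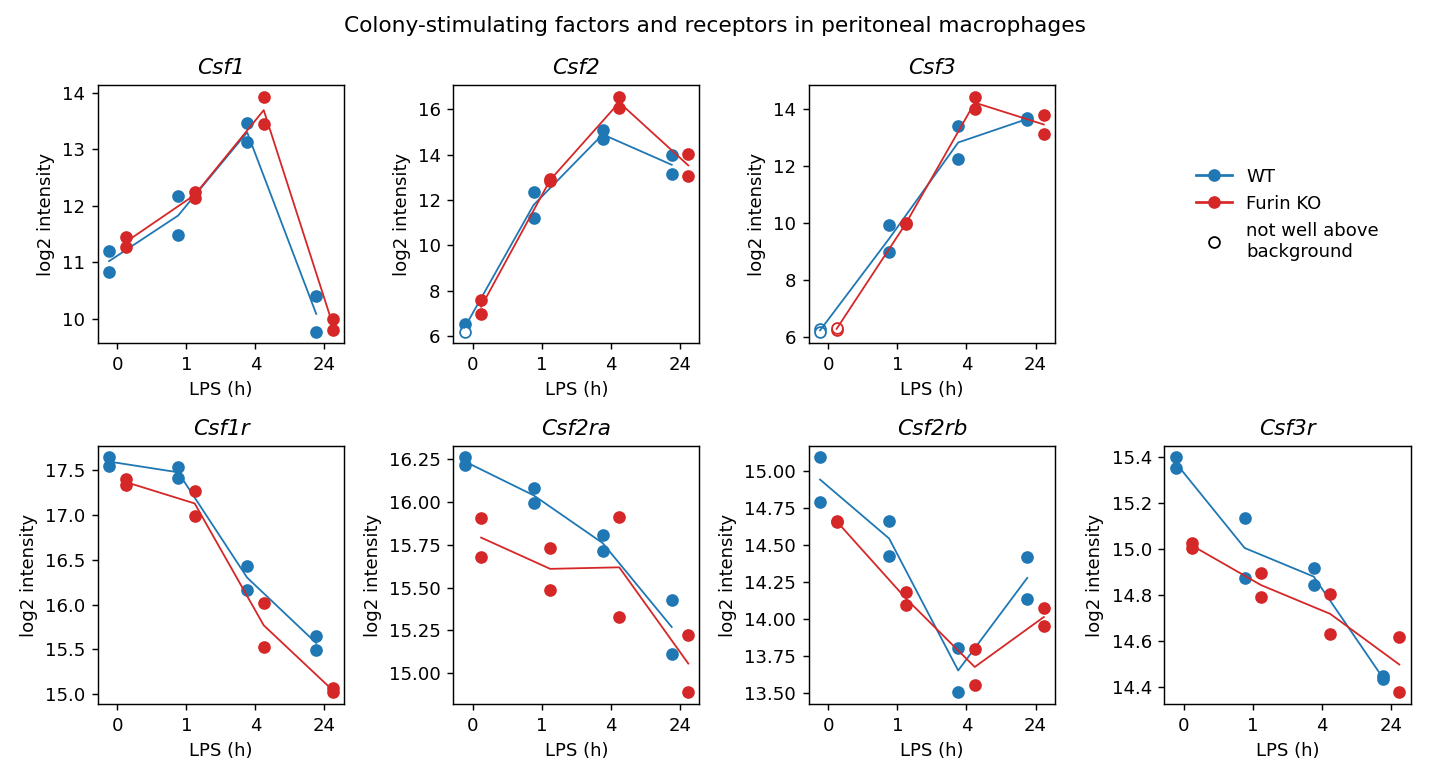
Normalized log2 intensity (y axis) of the 3 ligand genes (top) and the 4 receptor genes (bottom) against hours of LPS (x axis, time points equally spaced), with a y range of its own in each panel. Each point is a channel, n = 2 per group, lines join group means, and open points were not well above background. Csf1 falls below its starting level by 24 h while Csf2 and Csf3 stay high, and Csf1r falls from 17.64 and 17.55 to 15.49 and 15.65 in WT cells.

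Csf2, which encodes GM-CSF, rose at every time point in both genotypes. In WT cells its log2 intensity was 6.55 and 6.19 unstimulated, 12.38 and 11.19 at 1 h, 14.71 and 15.08 at 4 h, then 13.14 and 13.97 at 24 h. In KO cells it was 7.60 and 6.98 unstimulated, 12.94 and 12.84 at 1 h, 16.56 and 16.05 at 4 h, then 14.02 and 13.04 at 24 h. Stimulated and unstimulated channels were far apart in both genotypes, and 4 h gave the highest values in each. The fitted WT change was 5.42 ± 0.40 (SE) at 1 h, 8.53 ± 0.40 at 4 h and 7.19 ± 0.40 at 24 h (limma separate-channel fit, adjusted p = 1.03e-06, 1.54e-09 and 1.23e-08). The KO level rose by 5.60, 9.02 and 6.24 at the same times (adjusted p = 8.91e-07, 9.58e-10 and 5.16e-08). From 4 to 24 h it fell by 1.34 in WT cells (adjusted p = 0.0214) and by 2.78 in KO cells (adjusted p = 0.000101), and the WT decrease was lost without replicate 2 of 4 h (adjusted p = 0.135) or replicate 1 of 24 h (adjusted p = 0.141), from processed signals (adjusted p = 0.115) and without scaling between arrays (adjusted p = 0.0678). The probe was printed at 10 spots on every array. Only 1 of the 2 unstimulated WT channels lay well above background, so the fitted WT changes are not exact. With the dim channel set to the dimmest signal above background, the WT increases were at least 40.8-fold, 349-fold and 137-fold.

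Csf3, which encodes G-CSF, also rose at every time point, from a start that could not be measured. Its probe was not well above background in any of the 4 unstimulated channels. WT cells gave 9.93 and 8.98 at 1 h, 13.38 and 12.25 at 4 h, then 13.66 and 13.61 at 24 h, and KO cells gave 9.99 and 9.96, 14.42 and 14.01, and 13.78 and 13.11. The LPS levels were therefore at least 8.34-fold, 83.0-fold and 152-fold over unstimulated WT cells at 1, 4 and 24 h, with adjusted p = 2.51e-05, 2.70e-09 and 1.59e-09 in limma. In KO cells they were at least 11.5-fold, 217-fold and 127-fold higher (adjusted p = 8.35e-06, 5.07e-10 and 2.42e-09). Between 4 and 24 h the mean moved by 0.82 in WT cells (adjusted p = 0.0846) and by -0.77 in KO cells (adjusted p = 0.107). The WT step rested on the 4 h arrays: it was 1.39 and passed without replicate 1 of 4 h (adjusted p = 0.00733), and 0.26 without replicate 2 (adjusted p = 0.680). The KO step was -0.97 and passed without replicate 2 of 4 h (adjusted p = 0.0426), and it was -0.43 without replicate 2 of 24 h (adjusted p = 0.551). Without scaling between arrays the WT step was 1.20 (adjusted p = 0.00870) and the KO step -0.45 (adjusted p = 0.401). With the replicate number as a block, the adjusted p of these steps was 0.0179 and 0.0255.

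Csf1, which encodes M-CSF, was above background in every channel. WT cells gave 11.21 and 10.83 unstimulated, 12.17 and 11.48 at 1 h, 13.47 and 13.13 at 4 h, then 9.77 and 10.40 at 24 h. KO cells gave 11.44 and 11.28, 12.14 and 12.24, 13.93 and 13.46, and 10.00 and 9.79. The 24 h channels were the lowest of each genotype and the 4 h channels the highest, with no overlap. The rise at 4 h was 2.28 ± 0.25 (SE), or 4.86-fold, in WT cells (adjusted p = 4.38e-06) and 2.34, or 5.05-fold, in KO cells (adjusted p = 3.56e-06). From 4 to 24 h Csf1 fell by 3.21, or 9.28-fold, in WT cells and by 3.80, or 13.9-fold, in KO cells (adjusted p = 3.27e-07 and 7.77e-08). Below the unstimulated level it was lower by 1.91-fold in WT cells at 24 h (adjusted p = 0.00980) and by 2.75-fold in KO cells (adjusted p = 0.000385). The WT change was lost without replicate 1 of unstimulated cells (adjusted p = 0.118) or of 24 h (adjusted p = 0.146).

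At 1 h the change of Csf1 was 0.81 in WT cells (adjusted p = 0.0656) and 0.84 in KO cells (adjusted p = 0.0605), and with the replicate block both passed (adjusted p = 0.0380 and 0.0330). A pair of further Csf1 probes, for the RefSeq transcript NM_001113530, moved by -0.13 and -0.08 at 1 h, 1.29 and 1.29 at 4 h, then -0.36 and -0.39 at 24 h in WT cells. The probes thus disagreed in sign at 1 h and differed in size at 4 and 24 h. With the mean of the 3 probes the WT decrease at 24 h was 0.56 and did not pass (adjusted p = 0.131).

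The stretches upstream of the Csf1 and Csf2 starts are shown because both transcripts were induced together at 4 h. RefSeq's promoter table (GRCm38.p6) held an entry for 4 of the 7 genes, Csf1, Csf2, Csf2ra and Csf3r. The 250 bases before the listed start of Csf1 are chr3:107760470-107760719 and those of Csf2 are chr11:54249900-54250149, both on the minus strand and written 5′ to 3′ of the gene. Capitals mark a match to the NF-κB consensus.
Csf1: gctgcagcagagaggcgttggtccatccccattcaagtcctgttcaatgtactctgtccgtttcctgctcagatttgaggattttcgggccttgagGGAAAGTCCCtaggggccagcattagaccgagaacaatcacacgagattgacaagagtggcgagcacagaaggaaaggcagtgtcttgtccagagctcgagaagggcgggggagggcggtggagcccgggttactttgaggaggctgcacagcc
Csf2: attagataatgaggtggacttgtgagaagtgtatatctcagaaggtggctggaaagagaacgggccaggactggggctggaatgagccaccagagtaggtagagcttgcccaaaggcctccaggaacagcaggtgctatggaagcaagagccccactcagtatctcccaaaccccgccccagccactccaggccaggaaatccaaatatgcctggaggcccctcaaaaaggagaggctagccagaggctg
Both strands were searched for the NF-κB consensus, for TGANTCA as the AP-1 motif, for TATAA as the TATA box and for CCAAT as the element of that name. Csf1 held 1 NF-κB match, GGAAAGTCCC, read on both strands, at 154 to 145 bases before the start, and none of the other 3 motifs, and Csf2 held no match to any. The NF-κB consensus occurred in 9.55% of the 32851 promoter windows of this length, the AP-1 motif in 6.75%, TATAA in 22.8% and CCAAT in 33.8%. Among the receptor genes, Csf3r held 1 NF-κB match and Csf2ra none. These are matches of letters, and the array does not show which start a transcript used.

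The 4 receptor genes were above background in every channel, and all 4 were lower at 24 h of LPS in both genotypes. Markers of the cells themselves moved too: of 7 macrophage markers, Csf1r among them, 4 fell and 1 rose at 4 h and 4 fell and 2 rose at 24 h in WT cells, with medians of -0.85 and -1.33, and their summed log2 level was between 19.02 and 19.29 in unstimulated WT cells and between 17.95 and 18.04 at 24 h. Of 6 large peritoneal macrophage markers 5 fell at 24 h in each genotype, with medians of -3.55 in WT and -3.83 in KO cells. Of 6 mast cell markers 4 fell and 0 rose at 24 h in each genotype, with medians of -1.59 and -1.38, and the summed log2 level of 5 dendritic cell markers was 11.71 to 12.72 in unstimulated and 9.57 at 24 h in both WT samples. The part of these cell types in the fall of the receptors was not tested. Csf1r, the receptor of M-CSF, lay at 17.64 and 17.55 in unstimulated WT cells, 17.54 and 17.42 at 1 h, 16.43 and 16.17 at 4 h, then 15.49 and 15.65 at 24 h. KO cells gave 17.40 and 17.34, 17.27 and 16.99, 16.01 and 15.52, and 15.02 and 15.07. The 1 h values lay beside the unstimulated ones, and both later times were clearly lower in each genotype. At 1 h the change was -0.12 in WT cells (adjusted p = 0.795) and -0.24 in KO cells (adjusted p = 0.467). It was 2.46-fold lower at 4 h and 4.08-fold lower at 24 h in WT cells (adjusted p = 6.66e-06 and 1.41e-07), and 3.03-fold and 5.02-fold lower in KO cells (adjusted p = 8.62e-07 and 4.02e-08). The step from 4 to 24 h was -0.73 in WT cells (adjusted p = 0.00149) and -0.73 in KO cells (adjusted p = 0.00151). The other pair of Csf1r probes changed by -1.98 and -1.79 at 4 h and by -2.66 and -2.57 at 24 h in WT cells, in the same direction as the brightest probe. Without scaling between arrays the 4 to 24 h steps shrank to -0.38 and -0.41 and did not pass (adjusted p = 0.106 and 0.0817).

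Csf2rb, the common beta chain, had a different course: it was lowest at 4 h and had partly returned at 24 h. WT cells gave 15.09 and 14.79 unstimulated, 14.66 and 14.42 at 1 h, 13.80 and 13.50 at 4 h, then 14.13 and 14.42 at 24 h. KO cells gave 14.66 and 14.65, 14.18 and 14.09, 13.80 and 13.55, and 13.95 and 14.07. The 4 h channels lay below all others of their genotype. The change at 4 h was -1.29 ± 0.14 (SE) in WT cells (adjusted p = 5.11e-06) and -0.98 in KO cells (adjusted p = 6.65e-05), and at 24 h it was -0.66 and -0.65 (adjusted p = 0.00228 and 0.00292). At 1 h it was -0.40 in WT cells (adjusted p = 0.123) and -0.52 in KO cells (adjusted p = 0.0412), a KO call that was lost without any 1 of 6 arrays, both replicates of unstimulated cells, 1 h and 24 h (-0.56 to -0.47, highest adjusted p = 0.227). The return from 4 to 24 h was 0.62 in WT cells (adjusted p = 0.00367) and 0.34 in KO cells (adjusted p = 0.0960), and without replicate 2 of 24 h the WT value was 0.48 (adjusted p = 0.0684). A second, dimmer probe changed by -0.81 at 4 h in WT cells, and with the mean over both probes the KO change at 24 h was -0.39 and did not pass (adjusted p = 0.0558). Csf2rb2, a near-identical paralog that serves interleukin 3 alone, changed by -1.56 in WT and -1.24 in KO cells at 4 h, and hybridization of each transcript to the other's probe is uncertain.

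Csf2ra, the ligand-specific chain for GM-CSF, fell slowly. WT cells gave 16.21 and 16.26 unstimulated, 15.99 and 16.08 at 1 h, 15.71 and 15.81 at 4 h, then 15.12 and 15.43 at 24 h. KO cells gave 15.90 and 15.68, 15.73 and 15.49, 15.91 and 15.33, and 15.23 and 14.89. WT values went down from each time point to the next without overlap, while those of KO cells overlapped until 4 h. At 24 h it was 1.95-fold lower in WT cells (adjusted p = 0.000931) and 1.66-fold lower in KO cells (adjusted p = 0.00706). At 4 h the change was -0.48 in WT cells (adjusted p = 0.0613, with the replicate block 0.00237) and -0.17 in KO cells (adjusted p = 0.552). From 4 to 24 h the WT step was -0.49 (adjusted p = 0.0622, with the replicate block 0.00232). The KO decrease at 24 h was lost without replicate 1 of unstimulated cells (-0.62, adjusted p = 0.0875) or replicate 2 of 24 h (-0.57, adjusted p = 0.0795).

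Csf3r, the receptor of G-CSF, had the narrowest range of group means of the 7 genes, 0.94 log2 units. WT cells gave 15.35 and 15.40 unstimulated, 14.87 and 15.14 at 1 h, 14.92 and 14.84 at 4 h, then 14.43 and 14.44 at 24 h. KO cells gave 15.03 and 15.00, 14.79 and 14.89, 14.81 and 14.63, and 14.62 and 14.37. Unstimulated WT cells stood highest of all groups, and at 24 h the genotypes overlapped. In WT cells Csf3r was 1.41-fold lower at 4 h (adjusted p = 0.00285) and 1.92-fold lower at 24 h (adjusted p = 1.72e-05). In KO cells it changed by -0.30 at 4 h (adjusted p = 0.0551, with the replicate block 0.0385) and was 1.43-fold lower at 24 h (adjusted p = 0.00267), a call lost without replicate 2 of 24 h (adjusted p = 0.0570). At 1 h the change was -0.37 in WT cells (adjusted p = 0.0618, with the replicate block 0.0364) and -0.17 in KO cells (adjusted p = 0.506). The summed level of 6 measured neutrophil markers, 3 of them below background throughout, was 12.81 to 12.97 in unstimulated WT cells and 14.56 to 15.91 at 24 h, in KO cells 12.76 to 12.89 and 15.24 to 16.03. At 24 h 2 of the 6 rose, 1 fell and 3 did not pass in each genotype, with medians of 0.14 and -0.00, and their part in the result was not tested.

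Without scaling between arrays, the 24 h changes of Csf2ra, Csf2rb and Csf3r were smaller, and 4 of the 6 did not pass: Csf2rb gave -0.20 in WT and -0.18 in KO cells, Csf2ra -0.35 in KO cells and Csf3r -0.04 in KO cells (adjusted p = 0.503, 0.582, 0.231 and 0.898). Those that passed were Csf2ra at -0.55 and Csf3r at -0.49 in WT cells.

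Between neighbouring time points, 5 of the 7 genes changed from 1 to 4 h and 5 from 4 to 24 h in WT cells, against 29.6% and 29.7% of all genes and transcripts (from 4 to 24 h 15.1% rose and 14.6% fell, but without scaling between arrays 79.4% of the calls were rises, against 50.9%), and 5 and 4 did so in KO cells, against 31.8% and 30.7%. Those that changed from 1 to 4 h were Csf1, Csf2 and Csf3, which rose, and Csf1r and Csf2rb, which fell, in both genotypes. The KO step of Csf2rb from 1 to 4 h, -0.46 (adjusted p = 0.0219), was lost without replicate 1 (adjusted p = 0.121) or 2 (adjusted p = 0.0570) of 1 h or replicate 2 of 4 h (adjusted p = 0.148). From 4 to 24 h the KO step of Csf2ra, -0.56 (adjusted p = 0.0320), was lost without replicate 1 of 4 h (adjusted p = 0.374) or replicate 2 of 24 h (adjusted p = 0.235), and the WT step of Csf3r, -0.44 (adjusted p = 0.00802), without replicate 1 of 4 h (adjusted p = 0.0532). Without scaling between arrays none of these 3 steps passed: the Csf2rb step was -0.40 (adjusted p = 0.0960), the Csf2ra step -0.24 (adjusted p = 0.461) and the Csf3r step -0.07 (adjusted p = 0.820). With the replicate block, Csf2ra and Csf3 also passed from 4 to 24 h in WT cells, and Csf3 in KO cells.

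**Figure D2:**
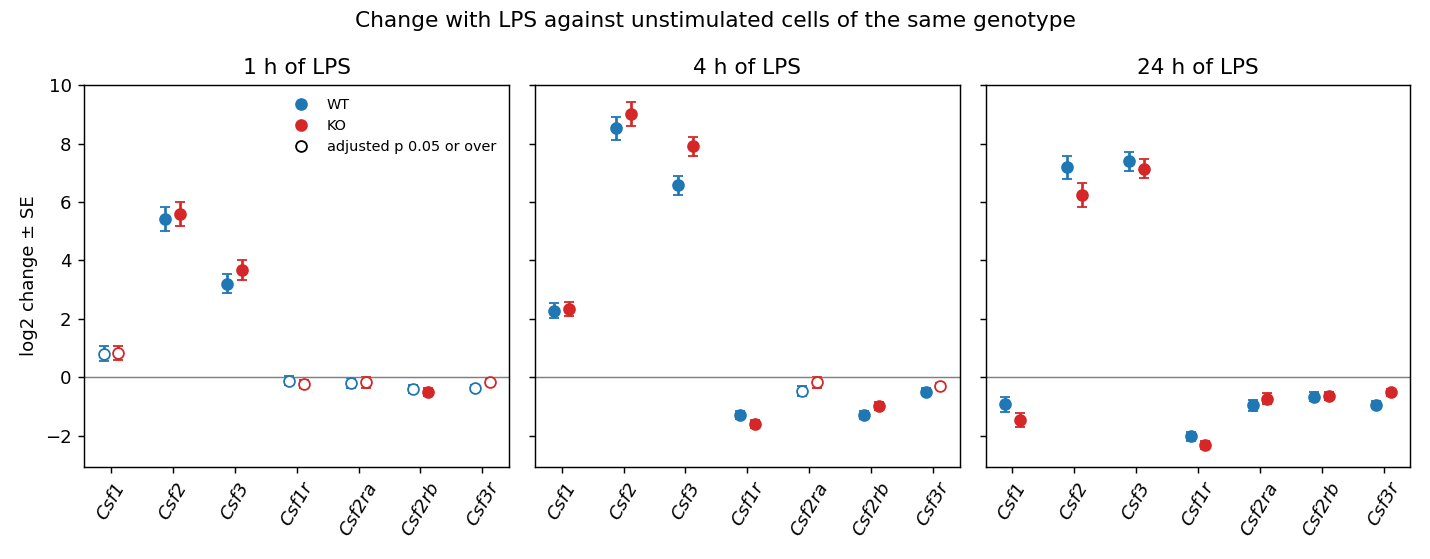
Change in log2 intensity with LPS against unstimulated cells of the same genotype (y axis, ± SE of the limma fit) for each gene (x axis) at 1, 4 and 24 h, n = 2 channels per group. Filled points have an adjusted p under 0.05; at 4 h the 3 ligand genes lie above 0 and the 4 receptor genes below it in both genotypes.

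Fewer differences passed between the genotypes than between time points. No gene of the 7 passed at any single time point, where 0 of all genes and transcripts were called in unstimulated cells and at 1 h, 0.00812% at 4 h and 0.0244% at 24 h (0.0135% higher and 0.0108% lower; limma ratio fit). Before adjustment, 5 of the 7 had a p under 0.05 in unstimulated cells, 3 at 1 h, 3 at 4 h and 2 at 24 h, where 5.75%, 5.46%, 4.31% and 3.42% of all genes and transcripts did. With the replicate number as a block, which here also takes up the dye orientation, Csf1r passed at 4 h (adjusted p = 0.0223) and 24 h (adjusted p = 0.0219) and Csf3 at 4 h (adjusted p = 0.0140), against 1.06%, 0.577%, 0.568% and 0.585% of all genes and transcripts at the successive time points. The methods' t-test, run gene by gene on the same intensities, called 0 of the 7 after Benjamini-Hochberg adjustment at every time point, and at its unadjusted threshold Csf3r in unstimulated cells, Csf2 at 4 h and Csf1r at 24 h, that is 1, 0, 1 and 1 of the 7 at the successive time points, where 4.62%, 4.75%, 3.07% and 4.1% of all genes and transcripts passed.

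Csf1r was lower in KO cells on all 8 arrays. Its KO/WT log2 ratios were -0.24 and -0.21 in unstimulated cells, -0.27 and -0.42 at 1 h, -0.42 and -0.65 at 4 h, then -0.47 and -0.58 at 24 h. The mean over the time points was -0.41 ± 0.05 (SE), or 1.33-fold lower in KO cells. The fit takes all 8 arrays as independent, which they are not if the replicate numbers pair samples over time. Csf1r alone of the 7 genes passed (limma, adjusted p = 0.0183), where 0.563% of all genes and transcripts did (0.322% lower). These were 208 genes and transcripts, and with any 1 array left out 1 to 161 passed. The median of the 7 means was -0.16, against 0.00 over all. The other Csf1r probes gave means of -0.41 and -0.36. The value stayed between -0.44 and -0.38 when any 1 array was left out, but the adjusted p rose above the threshold without 5 of them: replicate 1 (0.0978) or 2 (0.0646) of unstimulated cells and replicate 2 of 1 h (0.0676), 4 h (0.0911) or 24 h (0.0744). From the scanner software's processed signals the mean was -0.46 and did not pass (adjusted p = 0.175), nor did that of any other gene or transcript. Before adjustment 3767 of all genes and transcripts had a p under 0.05 there.

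The summed level of the other 6 measured macrophage markers, Lyz2 included, was lower in KO cells on 7 of 8 arrays, with log2 ratios from -0.79 to 0.27. Without Lyz2 the sum of the remaining 5 was lower on 4 of 8 arrays, with ratios from -0.61 to 0.82. Of those 6 genes, 3 had a mean ratio below 0 and 1 passed, Lyz2 at -1.18 (adjusted p = 0.000484), the gene whose locus carries the Cre. The others passed the test in neither direction, among them Adgre1, a surface receptor of macrophages, at 0.00 and Itgam, the CD11b integrin chain, at 0.11. Fcgr1, an Fc receptor, had the highest mean, 0.63 (adjusted p = 0.235). The summed level of 6 large peritoneal macrophage markers was higher in KO cells on 8 of 8 arrays, by 0.00 to 0.74. Their mean ratios ran from -0.30 for Timd4 to 0.74 for Selp, with Gata6 at 0.10 and Alox15 at 0.12, and 1 passed, Icam2 at 0.34 (adjusted p = 0.0265). What part a shift in cell make-up had in the Csf1r ratio was not tested.

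Among the ligands, Csf2 and Csf3 were higher in KO cells on most arrays. The Csf2 ratios were 1.05 and 0.79 in unstimulated cells, 0.56 and 1.65 at 1 h, 1.85 and 0.97 at 4 h, then 0.88 and -0.93 at 24 h. In replicate 2 of unstimulated cells the WT channel was not well above background, so that the 0.79 is set against a level that was not measured. The ratios were above 0 on 7 of 8 arrays, and replicate 2 at 24 h was the exception. The mean over the time points was 0.85 ± 0.20 (SE), or 1.81-fold, and did not pass (adjusted p = 0.125, with the replicate block 0.0129). Without replicate 2 of unstimulated cells the mean was 0.89. With any 1 array left out it lay between 0.63 and 1.08. The SD of the KO/WT ratio among the 8 or 10 usable Csf2 spots of an array was 0.02 to 0.13, a measure of spot noise alone. The Csf1 ratios lay between -0.61 and 0.76, above 0 on 6 of 8 arrays, with a mean of 0.23 (adjusted p = 0.534).

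The Csf3 ratios were highest at 4 h. In a heat map of genes chosen on these arrays, the study displays the difference in LPS response for this gene. That difference contains these ratios, so they are not independent evidence. The ratios were -0.02 and 0.13 in unstimulated cells, where the probe was not above background, 0.06 and 0.99 at 1 h, 1.04 and 1.76 at 4 h, then 0.12 and -0.50 at 24 h. Both 4 h arrays stood above all the other arrays. At 4 h the mean was 1.40 ± 0.24 (SE), or 2.63-fold higher in the samples labelled KO (adjusted p = 0.263, with the replicate block 0.0140), and these are the samples in which Furin was not lower. Over the time points the mean, which includes the unstimulated ratios at background, was 0.44 (limma, adjusted p = 0.182, with the replicate block 0.0260).

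The 3 remaining receptor genes leaned the other way. Csf2ra was lower in KO cells on 6 of 8 arrays, with ratios from -0.60 to 0.20, Csf2rb on 7 of 8, from -0.48 to 0.05, and Csf3r on 7 of 8, from -0.40 to 0.18. Their means were -0.31, -0.23 and -0.16 (adjusted p = 0.253, 0.112 and 0.254), and with the replicate block 0.00492, 0.0175 and 0.0517. The block takes the difference between replicates that is common to the time points out of the error, so its p-values do not measure that difference. With the block, 5 of the 7 genes passed for the mean over the time points, where 6.01% of all genes and transcripts did. The 5 were Csf2 and Csf3, higher in KO cells, and Csf1r, Csf2ra and Csf2rb, lower.

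**Figure D3:**
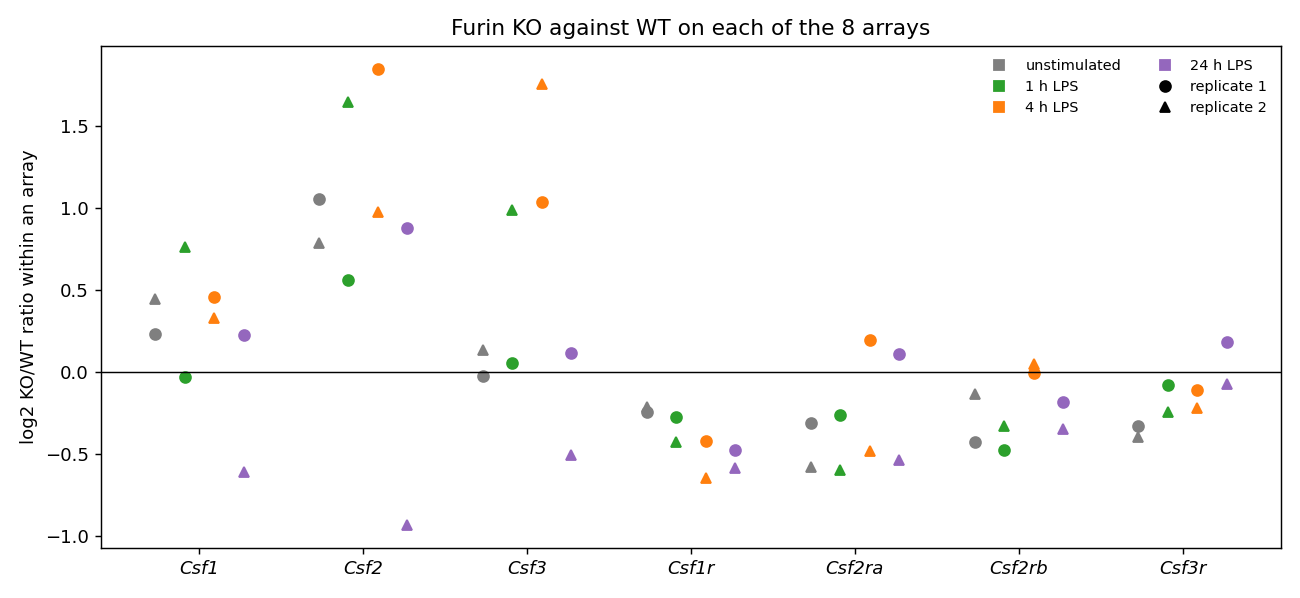
KO/WT log2 ratio within each of the 8 arrays (y axis) for each gene (x axis). Colour marks the time point and shape the replicate, which is also the dye orientation; all 8 Csf1r points lie below 0, between -0.65 and -0.21, and Csf2 lies above 0 on 7 arrays.

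The change with LPS did not differ between the genotypes past the test for any of the 7 genes at 1, 4 or 24 h, and 0 of all genes and transcripts passed it (limma ratio fit). Before adjustment, p was under 0.05 for 0, 1 and 1 of the 7 and for 516, 1073 and 1230 of all genes and transcripts at these times, and with the replicate block 0 passed, where 0, 0.0352% and 0.211% of all did. Those of the 7, named after their values were seen, were Csf3 at 4 h and Csf3r at 24 h. For Csf3 the difference in response was 0.47 ± 0.34 (SE) at 1 h, 1.34 ± 0.34 at 4 h and -0.25 ± 0.34 at 24 h (adjusted p = 1.00 at each time, with the replicate block 0.225 at 4 h). The replicates gave 1.06 and 1.62 at 4 h, from unstimulated signals that were not above background. The study displays this contrast for Csf3 in a heat map of genes chosen on these arrays, so it is not independent evidence. The differences of the other 6 genes ranged from -0.12 to 0.20 at 1 h, -0.30 to 0.49 at 4 h and -0.95 to 0.42 at 24 h.

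Beyond the 7 genes, 59 genes of the same pathways were followed by role. In WT cells 14 rose and 4 fell at 1 h, 23 rose and 19 fell at 4 h, and 20 rose and 22 fell at 24 h, where 8.52%, 34.8% and 30.4% of all genes and transcripts changed, with medians of 0.05, 0.08 and -0.05 against -0.02, -0.00 and -0.01 over all genes and transcripts. In KO cells 11 rose and 8 fell at 1 h, 22 and 17 at 4 h, then 20 and 20 at 24 h, where 7.54%, 36% and 28.7% of all changed. None passed in the KO/WT ratio at a single time point, and for the mean over the time points 2 of 59 were higher in KO cells, where 0.563% of all genes and transcripts passed, Dusp6, a phosphatase of the MAP kinase ERK, at 0.52 (adjusted p = 0.0273) and Lyn, a kinase of the Src family, at 0.35 (adjusted p = 0.0291), both named after their values were seen. Both calls were lost without any 1 of 7 arrays, all except replicate 1 of 24 h (highest adjusted p = 0.115 for Dusp6 and 0.133 for Lyn), and from processed signals (adjusted p = 0.175 and 0.176). With the replicate block 8 of the 59 were higher and 4 lower for the mean over the time points, where 6.01% of all genes and transcripts passed (2.79% higher, 3.22% lower), and at single time points 3 were higher in unstimulated cells and 1 at 4 h, where 1.06% and 0.568% passed.

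The counts by role that follow stand beside the shares of all genes and transcripts at 4 h. These were 34.8% in WT cells (15.5% rose, 19.2% fell) and 36% in KO cells (16.3% rose, 19.7% fell). Of the 6 related ligands and receptors, 2 fell at 4 h in both genotypes, Csf2rb2 (above) and Il3ra, the interleukin 3 receptor alpha chain, at -0.61 in WT and -0.59 in KO cells. Il5 was below background in all 16 channels, and Il34, the second ligand of CSF1R, was above it in 4. Of 23 signalling genes, 8 rose and 10 fell at 4 h in WT cells. Jak2, the kinase of the GM-CSF receptor, rose by 3.28 in WT and 3.27 in KO cells, Stat5a by 2.07 and 2.09, and Stat3, a mediator of G-CSF signals, by 1.74 and 1.93. Tyrobp, an adaptor protein of myeloid cells, changed by -1.63 and -1.65, and the kinases Akt1 and Mapk3 by -1.62 and -1.54 in WT cells.

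Of 8 feedback genes, 4 rose and 2 fell at 4 h in WT cells. Those that rose were Socs1, Socs2, Socs3 and Cish, of a family of inhibitors of cytokine signalling. Socs1 rose by 5.67 in WT and 5.20 in KO cells, Socs3 by 4.73 and 4.78, and Cish, a STAT5 target, by 4.71 and 4.66, while Socs2 changed by 0.74 (adjusted p = 0.0174) and 0.56 (adjusted p = 0.0685, with the replicate block 0.0141). Inpp5d, the lipid phosphatase SHIP1, changed by -3.47 and -3.39, and Ptpn6, a tyrosine phosphatase, by -1.31 and -1.74. Of 12 transcription factors of the myeloid lineage, 6 rose and 3 fell. Ets2 rose by 2.83 and 2.33, Gfi1 by 2.81 and 2.23 and Runx1 by 1.33 and 1.39, while Cebpa changed by -4.36 and -4.67 and Egr2 by -3.22 and -3.63.

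Of 4 genes that act in the shedding of CSF1 or CSF1R, Rhbdf2, a cofactor of the protease ADAM17, rose by 2.04 and 1.95 and Adam10, itself a protease, changed by -1.17 and -1.44. Of 6 genes known to be induced by GM-CSF, 4 rose and 1 fell at 4 h in WT cells: the kinase Pim1 rose by 3.67 in WT and 4.26 in KO cells, the chemokine Ccl22 by 2.60 and 2.86 and the transcription factor Irf4 by 2.44 and 2.15, and Pparg, a nuclear receptor, changed by -1.87 and -2.15. All the 4 h changes given here, except that of Socs2 in KO cells, had an adjusted p under the threshold in limma in both genotypes.

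**Figure D4:**
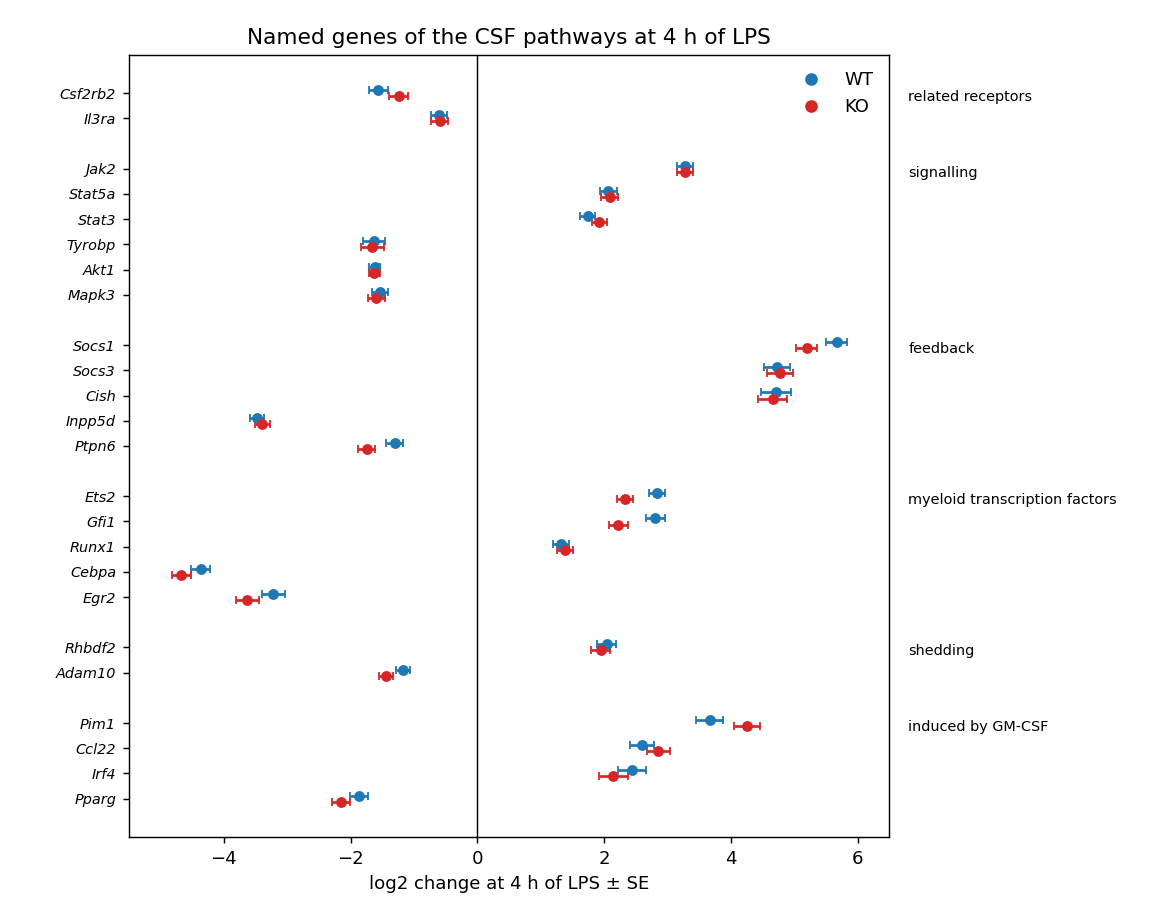
Change in log2 intensity at 4 h of LPS (x axis, ± SE of the limma fit, n = 2 channels per group) for the named pathway genes (y axis), by role. Every named gene lies on the same side of 0 in WT and KO cells: Jak2 is at 3.28 and 3.27, and Cebpa at -4.36 and -4.67.

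Across the 16 channels, which share arrays in pairs, some genes followed the same course as each of the 6 genes whose group means spanned more than 1 log2 unit. They were taken from 12750 genes above background in at least 8 channels, by Pearson's r, as a description. Csf2 was followed by Ptgs2, the inducible cyclooxygenase (r = 0.985), Dusp16 (0.983) and Ifi211 (0.982), and Csf3 by Slc15a3 (0.989), Il1rn, the interleukin 1 receptor antagonist (0.986), and Zfp558 (0.983). Csf1 was followed by Pank3 (0.975), Med13l (0.973) and Erbin (0.973). For the receptors they were Atox1 (0.988), Aldh2 (0.988) and Gprc5b (0.986) with Csf1r, Nsmf (0.951), Ephb6 (0.943) and Cyba, a subunit of the phagocyte oxidase (0.940), with Csf2ra, and Lims2 (0.973), Cnpy2 (0.971) and Zdhhc1 (0.969) with Csf2rb.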

How the data were processed

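The authors deposited the scanner output of Feature Extraction from Agilent (10.7.3 in the submitters' processing notes), with the median intensity of every spot and of its local background in both dyes, and flags for spots well above background, saturated or outlying. Their deposited matrix of normalized log2 ratios of Cy5 to Cy3 served only as an alternative. All 8 arrays lay on 1 slide with 1 scan.

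Median intensities were corrected with normexp (offset 50), normalized by loess within and quantiles between arrays in limma 3.58.1 (R 4.3.3), and averaged over the spots of a probe. The brightest probe stood for a gene, and genes with a mean log2 intensity under 6 were left out. KO/WT ratios were fitted with lmFit and eBayes (36947 genes and transcripts, 4 residual degrees of freedom), and LPS changes with the separate-channel fit (statmod 1.5.0, 36927, within-spot correlation 0.106). The p-values were adjusted by Benjamini-Hochberg over all of these, with a threshold of 0.05. Without a replicate block they measure the spread between arrays, taken as independent. With the block, the difference between replicates that is common to the time points is left out of that spread. The fits without the block were tested on simulated data, which held no replicate or dye effect.

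Samples were grouped by title, since the growth protocol in the labels gives 4 h of LPS for every sample. The ratio's deviations of replicates 1 and 2 correlated between time points across genes (r = 0.475 to 0.679, 6 pairs). Replicate and dye orientation are the same factor in the ratio, so whether the numbers pair the samples cannot be told from it. Values with a replicate block are given where they change a call for the 7 genes or a pathway count by over 1.5 times. Named genes were the 7 genes, Furin, per role list up to 3 with the largest rise and 3 with the largest fall at 4 h in WT cells among those called in both genotypes, the 3 most alike in course, and markers, and 1 gene that the rule names is not reported here. The genes and lists were chosen with earlier results of these data known. Floors ("at least") put a channel below background at the dimmest probe above background, after loess and Aquantile normalization. Alternatives were the processed signals, Aquantile or no scaling between arrays, no filter or a stricter one (8 channels above background), the mean over probes, the deposited ratios, the methods' t-test, the replicate block and each array left out.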

Additional observations from a re-analysis of the deposited data

How the results depend on the processing

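Of 50 calls for the 7 genes, 40 held without any 1 array and none changed direction under any alternative that gave a value. The number of genes called stayed the same or within 1.5 times with Aquantile scaling, without a filter, with the mean over probes and with the deposited ratios. The replicate block raised it from 2 to 4 at 1 h in WT cells, from 0 to 3 for KO/WT at the 4 time points and from 1 to 5 for the mean over them, and changed no other count by as much. The stricter filter gave 4 at 1 h in WT cells. No scaling between arrays gave 4 in place of 7 at 24 h in KO cells. There the median of all genes moved by up to -0.16 (4 against 1 h), and increases made up 27.8% of the calls at 4 h in WT cells, against 44.6%. From processed signals 0 passed for the KO/WT mean over times, as without some single arrays (range 0 to 1). After adjustment, the methods' t-test called 0, 1 and 0 of the 7 at 1, 4 and 24 h in WT cells, 0, 1 and 1 in KO cells, and 0 between neighbouring times, and of the 59 pathway genes 0, 6 and 0, and 0, 8 and 6, where 0%, 4.97% and 0.0325% of all genes and transcripts passed in WT cells and 0%, 2.13% and 1.66% in KO cells. At its unadjusted threshold it called 2, 7 and 5 of the 7 in WT cells, where 13.2%, 31.1% and 27.9% of all genes and transcripts passed, and 4, 5 and 5 in KO cells, where 13.7%, 28.4% and 27% did. Pathway calls at 1 h in KO cells ranged from 12 to 19 with an array left out.

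Signs turned only in results that had not passed. With 1 array left out, KO/WT ranged from -0.029 to 0.76 (1 h) and -0.61 to 0.23 (24 h) for Csf1, -0.93 to 0.88 (24 h) for Csf2, -0.024 to 0.13 (unstimulated) and -0.50 to 0.12 (24 h) for Csf3, -0.48 to 0.20 (4 h) and -0.54 to 0.11 (24 h) for Csf2ra, -0.0039 to 0.051 (4 h) for Csf2rb, and -0.070 to 0.18 (24 h) for Csf3r. The KO LPS change of Csf2ra at 4 h ranged from -0.46 to 0.12, its KO step from 1 to 4 h from -0.28 to 0.30 (without scaling between arrays -0.053), the WT step of Csf3r from 1 to 4 h from -0.26 to 0.0077, and the Csf3 difference in response at 24 h from -0.56 to 0.062. Without scaling the KO step of Csf3r from 4 to 24 h was 0.14, and from processed signals the Csf3 difference in response at 1 h was -0.44. The causes were not tested. With 2 arrays per time point the number of arrays limits the precision, and levels of Csf3 in unstimulated cells lay at background.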
